A study of Mus musculus with 8 samples.

Results

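The genes described here mark macrophages and other antigen-presenting cells of the mouse heart. They were taken by name as a set of 38 genes, put together with earlier results of these data known, and all 38 were among the 18194 genes measured. By role they comprised 7 surface receptors, 4 genes of resident macrophages, 1 receptor of monocyte-derived cells, 3 complement C1q subunits, 7 lysosomal and effector genes, 7 adaptors, integrins and tetraspanins, 2 secreted factors, 3 intracellular regulators and 4 MHC class II genes. The arrays compared unstressed hearts of mice lacking steroid receptor coactivator-2 (SRC-2, the product of Ncoa2), a partner of nuclear receptors and other transcription factors, with those of wild type mice, in order to find which cardiac transcripts differ when SRC-2 is absent. The groups were 4 SRC-2 KO hearts and 4 WT hearts, all from male C57B/6Jx129Sv mice fed ad lib and 10 to 12 weeks old. RNA came from the whole heart, so it held the RNA of muscle, vessels, connective tissue and any leukocytes in the tissue or in retained blood, and the labels do not restrict the knockout to one cell type. Each heart was hybridised to 1 Affymetrix Mouse 430 2.0 array, and each value is a linear array signal in units to which every array had been scaled.

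Macrophages are the most numerous leukocytes of the healthy heart. Resident macrophages depend on signalling through the CSF1 receptor, maintain themselves largely within the tissue, engulf dying cells and cell debris, and are known by Mrc1, Lyve1, Folr2 and Cd163, whereas cells that derive from circulating monocytes carry Ccr2. Antigen-presenting cells, among them a share of the macrophages and the dendritic cells, load peptides from the endosome onto MHC class II molecules and show them to CD4+ T cells.

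The targeted gene was read first. Ncoa2 gave 237, 260, 267 and 235 in the SRC-2 KO hearts and 1660, 2115, 1827 and 2134 in the WT hearts, a log2 fold change of -2.95 ± 0.12 (SE, n = 4 each, limma adjusted p = 0.00058), so that all 8 arrays carried the signal that their labels require. The median probeset signal was 75.6 to 83.2 on the SRC-2 KO arrays and 77.0 to 87.3 on the WT arrays. The 10 heart muscle genes read, among them Myh6 and Tnnt2, had signals of 17345 or more in every heart.

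Promoter sequences are shown for 5 members because they carry the short motifs through which macrophage and class II genes are commonly read. PU.1, the product of the member Spi1, binds GAGGAAG and related ETS sites, ETS and IRF proteins together bind a composite ETS-IRF element, and NF-Y binds the Y box, CTGATTGG, of class II promoters. Each motif was searched on both strands of the 250 bases before the start site of RefSeq genes (GRCm38.p6), and 26 of the 38 members had an entry. The first motif was found in 7 of these 26 (C1qc, F13a1, Fcgr3, Itgam, Laptm5, Mrc1 and Pf4) and in 10.6% of all 32851 promoters. The second was found in Folr2 alone among the members and in 2.3% of all promoters, and the Y box in H2-Aa and H2-Eb1 and in 3.83% of all promoters. Members were counted by gene, and a gene such as Fcgr3 can have several promoters, whereas the shares count promoters. The counts and the shares are therefore not in like units. Capitals mark the motif, which reads CTTCCTC where it lies on the opposite strand. Among the members with the first motif that are not printed, signals of Laptm5 did not overlap between genotypes and those of F13a1, Fcgr3, Itgam and Pf4 did. The first 3 promoters printed belong to genes whose signals did not overlap between genotypes and the last 2 to class II genes whose signals did. They lie at chr2:14229164-14229413 (plus strand), chr4:136892915-136893164 (minus), chr7:101857191-101857440 (minus), chr17:34287824-34288073 (minus) and chr17:34305617-34305866 (plus), in the order printed.
Mrc1: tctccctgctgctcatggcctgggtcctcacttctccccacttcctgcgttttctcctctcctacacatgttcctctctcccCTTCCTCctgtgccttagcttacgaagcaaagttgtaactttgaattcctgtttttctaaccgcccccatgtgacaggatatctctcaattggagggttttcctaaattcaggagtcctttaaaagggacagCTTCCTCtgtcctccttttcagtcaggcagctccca
C1qc: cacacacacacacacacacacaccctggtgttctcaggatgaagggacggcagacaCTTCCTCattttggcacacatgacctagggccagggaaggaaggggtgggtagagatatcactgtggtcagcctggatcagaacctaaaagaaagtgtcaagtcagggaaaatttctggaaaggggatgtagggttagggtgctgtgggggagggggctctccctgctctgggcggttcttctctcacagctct
Folr2: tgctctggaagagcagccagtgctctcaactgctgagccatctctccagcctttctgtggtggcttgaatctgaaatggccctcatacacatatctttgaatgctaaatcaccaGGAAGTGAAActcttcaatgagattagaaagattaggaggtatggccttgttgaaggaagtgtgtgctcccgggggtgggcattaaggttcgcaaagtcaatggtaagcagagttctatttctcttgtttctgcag
H2-Aa: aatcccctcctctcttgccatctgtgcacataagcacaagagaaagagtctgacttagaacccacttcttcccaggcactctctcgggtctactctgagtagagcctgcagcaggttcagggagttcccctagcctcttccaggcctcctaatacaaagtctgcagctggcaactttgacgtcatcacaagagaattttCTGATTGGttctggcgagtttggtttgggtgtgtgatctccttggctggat
H2-Eb1: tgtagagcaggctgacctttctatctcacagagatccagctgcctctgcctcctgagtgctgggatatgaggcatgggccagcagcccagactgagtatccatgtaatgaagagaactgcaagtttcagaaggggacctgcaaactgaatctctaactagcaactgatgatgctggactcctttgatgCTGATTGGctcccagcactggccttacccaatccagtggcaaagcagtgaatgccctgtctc
The Mrc1 promoter holds the PU.1 type site at -168 to -162 and again at -36 to -30 from the start site, and that of C1qc holds it at -194 to -188. The composite site of Folr2 spans -136 to -127. The Y box lies at -51 to -44 in H2-Aa and at -62 to -55 in H2-Eb1, close to the start in both. A match shows only that these letters are present in the window.

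As a set, the members had lower signals in the SRC-2 KO hearts, by a small amount. The log2 fold change was below 0 in 30 of the 38 members and above 0 in 8, with a median of -0.27 against -0.03 over all genes, of which 53.1% were below 0. All 4 SRC-2 KO hearts lay below all 4 WT hearts in 9 members, which is 23.7% of them against 3.72% of all genes, and in no member did all 4 SRC-2 KO hearts lie above, against 3.12% of all genes. Since the set was put together with results known, these shares describe it and test nothing. The 9 were Il10ra, Cx3cr1, Csf1r, Folr2, Mrc1, C1qc, Ly86, Cybb and Laptm5. An unadjusted p under 0.05 was reached by 14 members with lower values and by none with higher values, against 6.09% and 3.95% of all genes (limma). In whole hearts, fewer cells of a type and less RNA per cell cannot be told apart.

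After adjustment over all genes, 1 member passed the threshold of 0.05 in the lower direction and 0 in the higher, beside 0.0165% and 0.0055% of all genes in the fit with 1 prior variance. With a prior variance that follows the signal level (the trended fit), again 1 member passed as lower and 0 as higher, beside 0.253% and 0.121% of all genes. In both fits the member was Il10ra, whose signal was close to background in the SRC-2 KO hearts and dim in the WT hearts. The remaining 37 members therefore have values, and not calls, and their smallest adjusted p-values were 0.341 for Ly86 in the first fit and 0.0869 for C1qc in the second (limma).

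**Figure D1:**
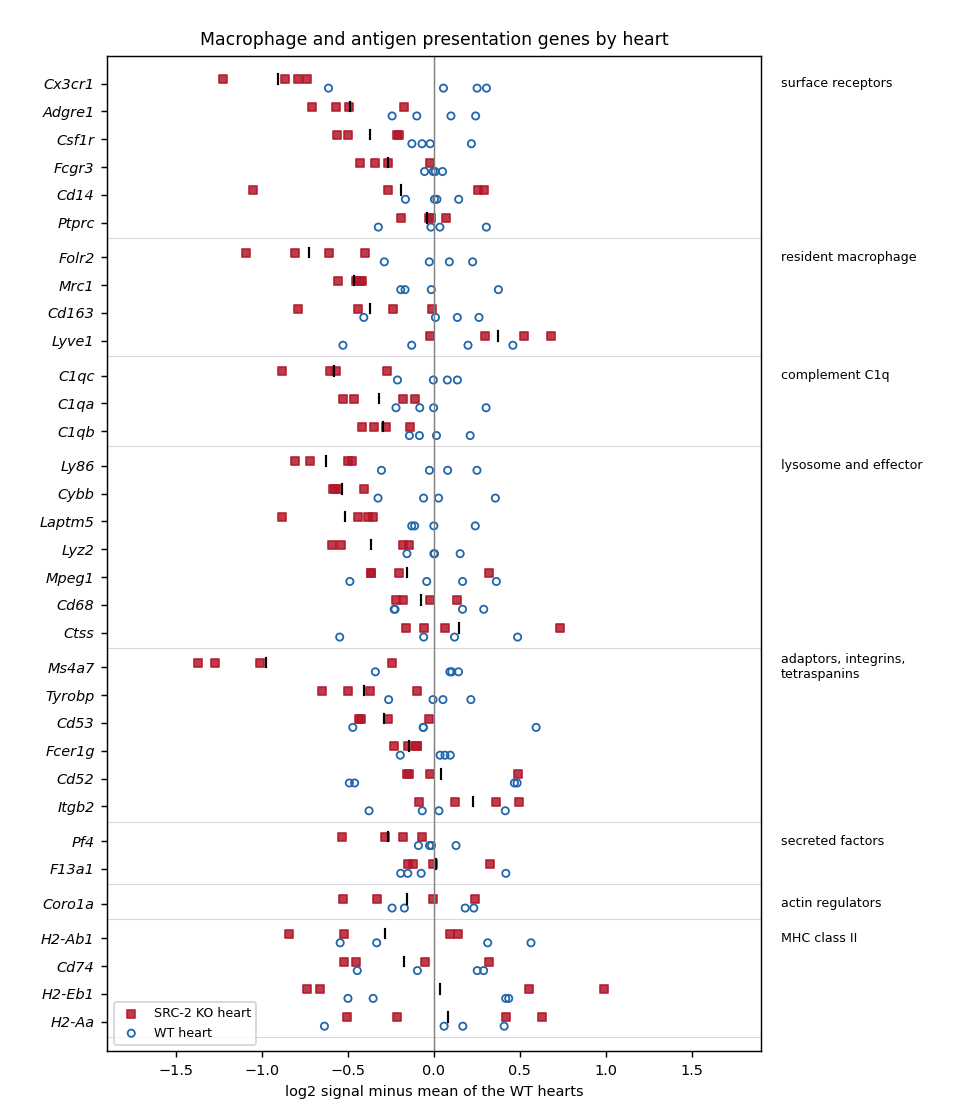
Log2 signal of the 33 members with a mean above 200 in either genotype, in each SRC-2 KO heart (filled squares) and WT heart (open circles), as the difference from the mean of the WT hearts. Black ticks are the SRC-2 KO means and grey lines separate the roles; squares sit left of 0 for most receptors, C1q and effector genes, while the MHC class II genes spread to both sides in both genotypes.

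The 7 surface receptors all had lower values in the SRC-2 KO hearts, and their median change was -0.37 on the log2 scale. Csf1r encodes the receptor for CSF1 and IL-34, the growth factors on which macrophages depend. Its signal was 4963, 4751, 6056 and 6087 in the SRC-2 KO hearts and 6690, 8164, 6914 and 6421 in the WT hearts. No SRC-2 KO heart reached the lowest WT heart, and the log2 fold change was -0.37 ± 0.14 (SE, n = 4 each, 95% interval -0.69 to -0.05, limma adjusted p = 0.464 in the first fit and 0.172 in the trended fit, in which order such pairs are given for the other genes). A second Csf1r probeset gave 947, 940, 1059 and 1418 in the SRC-2 KO hearts against 1751, 1841, 1750 and 1428 in the WT hearts, also with no overlap, and a log2 fold change of -0.65 ± 0.18. The dimmest Csf1r probeset overlapped, at -0.41 ± 0.22.

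Cx3cr1, the receptor for fractalkine, was brightest in a probeset that did not overlap between genotypes. It gave 143, 102, 138 and 131 in the SRC-2 KO hearts and 284, 295, 248 and 156 in the WT hearts, a log2 fold change of -0.90 ± 0.23 (95% interval -1.45 to -0.36, limma adjusted p = 0.361 and 0.179). The WT heart nearest to the SRC-2 KO hearts was WT heart 4. The other Cx3cr1 probeset was near background and gave 0.45 ± 1.3, and with the mean of both the log2 fold change was -0.22. Adgre1, which encodes the macrophage surface protein F4/80, gave 545, 602, 634 and 790 in the SRC-2 KO hearts and 956, 1056, 833 and 754 in the WT hearts, at -0.49 ± 0.16. Here SRC-2 KO heart 4 exceeded WT heart 4 and the remaining hearts were separated. Fcgr3, a low-affinity receptor for IgG, had a similar arrangement, with means of 614 ± 77.6 in the SRC-2 KO hearts and 733 ± 21.8 in the WT hearts (SD) and a log2 fold change of -0.26 ± 0.12.

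The other 2 receptors with clear signal showed smaller differences. Cd14, which presents bacterial lipopolysaccharide to its signalling receptor, ranged from 244 to 619 in the SRC-2 KO hearts and from 451 to 559 in the WT hearts, at -0.19 ± 0.30. Ptprc, which encodes CD45 and is carried by all leukocytes and not by macrophages alone, gave 517, 488, 483 and 432 in the SRC-2 KO hearts and 487, 609, 505 and 394 in the WT hearts. Its log2 fold change was -0.04 ± 0.15, with a 95% interval of -0.40 to 0.31 that holds the value of Csf1r.

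Il10ra, the ligand-binding chain of the receptor for the anti-inflammatory cytokine IL-10, fell in the fit. It gave 7.39, 4.91, 3.81 and 2.91 in the SRC-2 KO hearts and 43.6, 83, 91.9 and 104 in the WT hearts (log2 fold change -4.10 ± 0.37, limma adjusted p = 0.0365 and 0.0235). The SRC-2 KO values lie far under 50, where small signals have no reliable scale, so the size of the change is not a measured level. With every signal under 50 set to 50 the log2 fold change became -0.67 and the call was lost. It was also lost in the first fit when any 1 of the 8 hearts was left out (limma adjusted p of 0.0608 to 0.217). The WT values were also dim, beside a median probeset signal of 77.0 to 87.3 on the WT arrays. This probeset is marked as able to bind related transcripts. The other Il10ra probesets were near background in both genotypes, the brighter of them gave 0.14 ± 0.76, and the mean of all was -1.47.

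**Figure D2:**
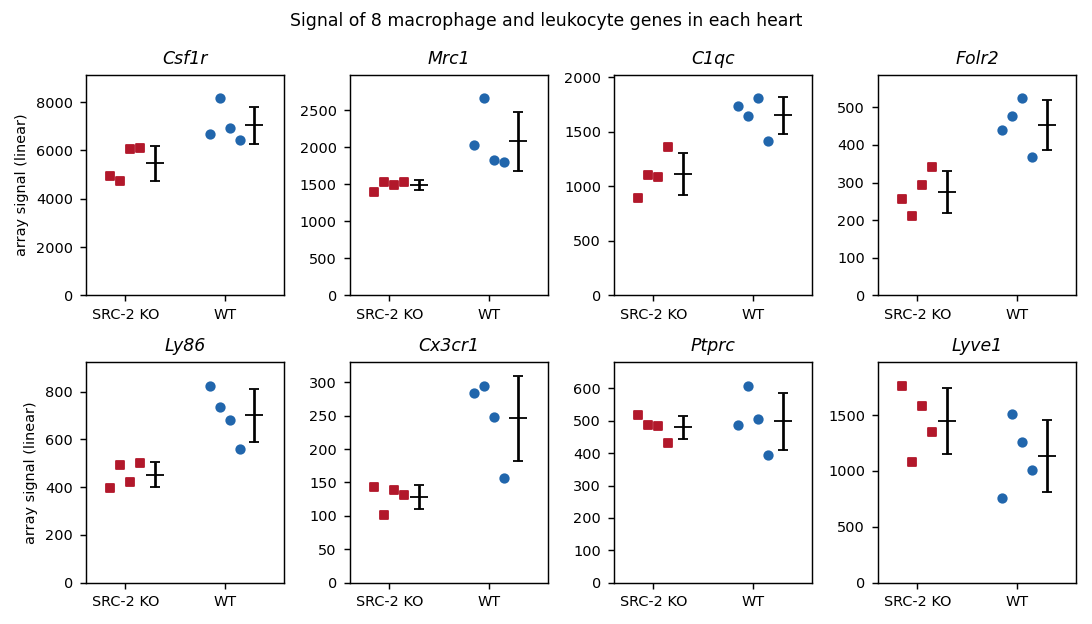
Linear array signal of 8 members in each heart, SRC-2 KO (squares) left of WT (circles), with the mean and SD beside the points (n = 4 each) and each axis starting at 0. The genotypes do not overlap for Csf1r, Mrc1, C1qc, Folr2, Ly86 and Cx3cr1 and overlap for Ptprc and Lyve1.

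Of the 4 resident macrophage genes 3 had lower values and 1 a higher value, and none passed the adjusted threshold. Mrc1, the mannose receptor that clears glycoproteins, gave 1395, 1533, 1497 and 1526 in the SRC-2 KO hearts and 2031, 2662, 1827 and 1796 in the WT hearts. Its 4 SRC-2 KO values were close together, with an SD of 64.0 against 402 in the WT hearts, and the log2 fold change was -0.47 ± 0.15 (95% interval -0.81 to -0.12, limma adjusted p = 0.409 and 0.129). Folr2, a folate receptor of resident macrophages, gave 256, 210, 294 and 340 in the SRC-2 KO hearts and 440, 477, 524 and 367 in the WT hearts, at -0.73 ± 0.19 (95% interval -1.16 to -0.29, adjusted p = 0.361 and 0.131, limma). Neither gene overlapped between genotypes. Cd163, the scavenger receptor for haemoglobin bound to haptoglobin, gave 468, 594, 802 and 685 in the SRC-2 KO hearts and 813, 969, 609 and 888 in the WT hearts, at -0.37 ± 0.22, with overlap.

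Lyve1, a receptor for hyaluronan that lymphatic endothelium carries as well, was the member with the higher value. It gave 1764, 1083, 1582 and 1348 in the SRC-2 KO hearts and 761, 1510, 1260 and 1004 in the WT hearts, at 0.37 ± 0.25 (95% interval -0.22 to 0.96, limma adjusted p = 0.644 and 0.475). The genotypes overlapped, and a second Lyve1 probeset gave 0.35 ± 0.20. The gap between the change of Lyve1 and that of the other resident genes was tested within hearts by exact two-sided permutation of the 8 genotype labels, in 6 gene pairs picked after their values were known. It was 1.10 ± 0.25 on the log2 scale against Folr2 and 0.84 ± 0.26 against Mrc1 (exact p = 0.0286 each, the smallest that 4 against 4 allows, and 0.0571 after adjustment over the 6 pairs), and 0.74 ± 0.35 against Cd163 (exact p = 0.114, adjusted 0.137). None of the 6 pairs passed after adjustment. With so few hearts, a pair could pass only if most of the 6 reached the smallest exact p. The miss therefore says little about the gaps. The other lymphatic endothelial markers, Prox1, Pdpn, Mmrn1 and 2 more, had lower values in all 5 genes (median -0.31), and their summed signal was 1771 to 1938 in the SRC-2 KO hearts and 1849 to 2582 in the WT hearts. Their part in the Lyve1 values was not tested.

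Ccr2, which brings monocytes into tissue, was dim. It gave 62.6, 105, 108 and 48.3 in the SRC-2 KO hearts and 59.0, 90.6, 98.4 and 49.4 in the WT hearts. The log2 fold change was 0.10 ± 0.35. Its 95% interval of -0.72 to 0.92 holds the value of Mrc1 (-0.47) and ends just short of that of Folr2 (-0.73). It also leaves room for a change in the opposite direction.

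All 3 complement C1q genes, whose products form the recognition unit of the classical pathway and are made in tissue mainly by macrophages, had lower values in the SRC-2 KO hearts. C1qc gave 891, 1106, 1082 and 1362 in the SRC-2 KO hearts and 1735, 1640, 1807 and 1419 in the WT hearts, with no overlap. Its log2 fold change was -0.58 ± 0.16 (95% interval -0.95 to -0.21, limma adjusted p = 0.383 and 0.0869). C1qa gave 1495, 1559, 1903 and 1997 in the SRC-2 KO hearts and 2152, 2659, 2035 and 1849 in the WT hearts, at -0.32 ± 0.16, with WT heart 4 inside the SRC-2 KO range. C1qb averaged 1594 ± 132 in the SRC-2 KO hearts and 1961 ± 217 in the WT hearts (SD, n = 4 each), at -0.30 ± 0.12. Its genotypes overlapped by a single pair of hearts, 1771 in SRC-2 KO heart 3 and 1769 in WT heart 4.

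Of the 7 lysosomal and effector genes, 6 had lower values, 3 without overlap. Among all genes 53.1% had lower values, and 3.72% had every SRC-2 KO heart below every WT heart. The median change of the 7 was -0.36, or -0.18 with the mean of all probesets and -0.15 without probesets marked as able to bind related transcripts. Ly86 encodes MD-1, which pairs with the Toll-like receptor relative RP105. It gave 396, 492, 421 and 500 in the SRC-2 KO hearts and 826, 734, 682 and 562 in the WT hearts, at -0.63 ± 0.15 (95% interval -0.99 to -0.26, limma adjusted p = 0.341 and 0.101). Cybb, the catalytic subunit of the phagocyte NADPH oxidase, gave 304, 342, 308 and 302 in the SRC-2 KO hearts and 362, 581, 462 and 435 in the WT hearts, at -0.53 ± 0.16 (adjusted p = 0.399 and 0.201, limma). In these probesets of both genes each SRC-2 KO heart was below each WT heart. The dimmer Cybb probesets overlapped between genotypes, at -0.42 ± 0.20 and -0.55 ± 0.42. Laptm5, a lysosomal membrane protein of leukocytes, gave 349, 503, 493 and 474 in the SRC-2 KO hearts and 589, 596, 761 and 644 in the WT hearts, at -0.52 ± 0.16. That value belongs to the brightest Laptm5 probeset only, since the other 4 overlapped between genotypes and gave log2 fold changes of -0.28 to 0.13.

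Lyz2, the lysozyme of macrophages and neutrophils and the brightest gene of this role, gave 4452, 4282, 5855 and 5699 in the SRC-2 KO hearts and 6482, 7188, 6465 and 5800 in the WT hearts. SRC-2 KO heart 3 lay just above WT heart 4 and the log2 fold change was -0.36 ± 0.15. The general phagocyte genes of this group differed less: Mpeg1, the pore-forming perforin-2, gave -0.15 ± 0.24 and Cd68, a lysosomal glycoprotein, gave -0.07 ± 0.16 (95% interval -0.46 to 0.31). Ctss, cathepsin S, which trims the invariant chain from class II molecules, averaged 1636 ± 507 in the SRC-2 KO hearts and 1480 ± 427 in the WT hearts, at 0.15 ± 0.28.

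Among the 7 adaptors, integrins and tetraspanins the values went to both sides, 5 lower and 2 higher, with a median of -0.29 and none without overlap. Ms4a7, a membrane protein of the MS4A family found on macrophages, gave 236, 252, 303 and 515 in the SRC-2 KO hearts and 651, 674, 656 and 482 in the WT hearts, at -0.98 ± 0.27 (95% interval -1.60 to -0.35, limma adjusted p = 0.385 and 0.101). The mean with a second probeset near background was -0.42. Heart 4 of each genotype stood apart from the other 3, each toward the other genotype. Tyrobp, the DAP12 adaptor through which TREM2 signals, was the brightest of the group, with 745, 813, 670 and 983 in the SRC-2 KO hearts and 1092, 1049, 1222 and 877 in the WT hearts, at -0.41 ± 0.16. Fcer1g, the common gamma chain of Fc receptors, gave -0.15 ± 0.11 and the tetraspanin Cd53 gave -0.29 ± 0.23, or -0.49 with the mean of its probesets. Cd52, a small glycoprotein of lymphocytes and monocytes, was at 0.04 ± 0.30, and Itgb2, the beta 2 integrin chain of all leukocytes, was at 0.23 ± 0.21. Itgam, which encodes CD11b, its partner chain in the integrin Mac-1, had a mean of 37.3 in the SRC-2 KO hearts and 51.2 in the WT hearts and cannot be read at that signal.

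Of the 2 secreted factors, F13a1, the coagulation factor XIII A chain which tissue macrophages and platelets carry, gave 3164, 3228, 4400 and 3495 in the SRC-2 KO hearts and 3066, 4685, 3155 and 3330 in the WT hearts, at 0.01 ± 0.18 (95% interval -0.41 to 0.44). Pf4, platelet factor 4, which resident macrophages also transcribe, averaged 1660 ± 222 in the SRC-2 KO hearts and 1986 ± 129 in the WT hearts, at -0.27 ± 0.13. The change of F13a1 exceeded that of Csf1r by 0.38 ± 0.11 on the log2 scale, and that of Ptprc exceeded it by 0.33 ± 0.15 (exact permutation p = 0.0286 and 0.114, or 0.0571 and 0.137 after adjustment over the same 6 pairs).

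The 3 intracellular regulators had small differences. Coro1a, the leukocyte coronin that shapes cortical actin, gave 440, 371, 296 and 258 in the SRC-2 KO hearts and 315, 438, 423 and 331 in the WT hearts, at -0.16 ± 0.21, and at 0.78 when only its probeset without such a mark was read, which was near background. Aif1, the actin-binding protein IBA1, was at -0.25 ± 0.23. Spi1, which encodes the lineage factor PU.1, had means of 97.4 ± 28.1 in the SRC-2 KO hearts and 108 ± 43.2 in the WT hearts, at -0.07 ± 0.41 (95% interval -1.05 to 0.90).

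The 4 MHC class II genes varied between hearts of one genotype more than between the genotypes. H2-Aa, the alpha chain of I-A, gave 2058, 3689, 3193 and 1681 in the SRC-2 KO hearts and 2485, 3166, 2680 and 1534 in the WT hearts, at 0.08 ± 0.33 (95% interval -0.68 to 0.85). H2-Ab1, its beta chain, gave 370, 707, 731 and 461 in the SRC-2 KO hearts and 526, 823, 980 and 454 in the WT hearts, at -0.28 ± 0.33. The dimmer H2-Aa probesets gave -0.25 ± 0.49, -0.18 ± 0.36 and -0.72 ± 0.78. Those of H2-Ab1 gave -0.40 ± 0.39 and -0.53 ± 0.57, and all of these overlapped between genotypes. Replicates 2 and 3 were the high hearts of both genotypes in the brightest probesets of these genes.

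H2-Eb1, the beta chain of I-E, gave 469, 1473, 1086 and 445 in the SRC-2 KO hearts and 580, 990, 1002 and 524 in the WT hearts, at 0.04 ± 0.46 (95% interval -1.04 to 1.11). Cd74, the invariant chain that escorts class II molecules to the endosome, gave 817, 1396, 1077 and 776 in the SRC-2 KO hearts and 1045, 1365, 1330 and 820 in the WT hearts, at -0.18 ± 0.25. The same 4 hearts, SRC-2 KO hearts 2 and 3 and WT hearts 2 and 3, were the upper 4 of 8 in all 4 genes. The highest heart exceeded the lowest by 3.31-fold for H2-Eb1 and 1.8-fold for Cd74. The SD within a genotype had a median of 0.50 on the log2 scale over the 4 genes, against 0.25 over the 33 brighter members and 0.17 over the 3805 genes of the same signal range. The change of H2-Aa minus that of Csf1r was 0.45 ± 0.36 in their brightest probesets (exact permutation p = 0.229), so a difference between the class II and the receptor values was not shown.

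**Figure D3:**
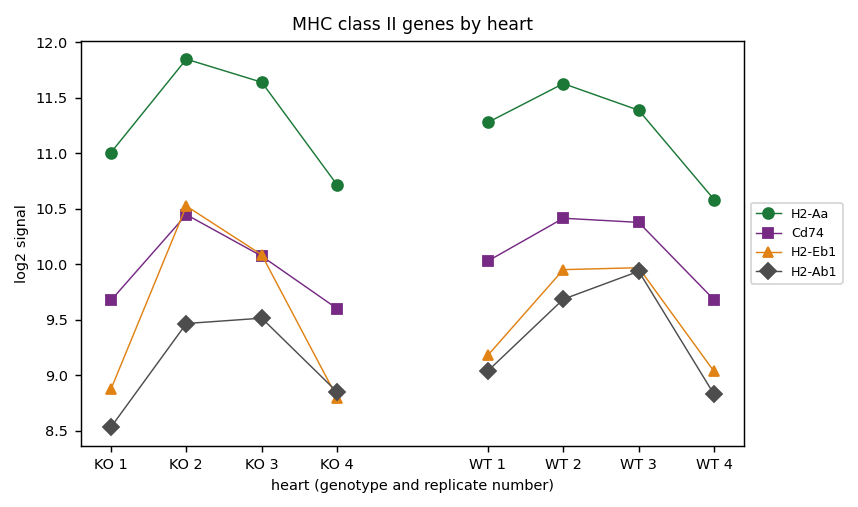
Log2 signal of the 4 MHC class II genes in each of the 4 SRC-2 KO hearts (left) and 4 WT hearts (right), with lines joining the hearts of a genotype only to guide the eye. In every gene the hearts numbered 2 and 3 are the upper ones in both genotypes.

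The hearts also differed in the members as a whole. The median member lay 0.44, 0.36, 0.15 and 0.27 log2 units below the mean of the WT hearts in SRC-2 KO hearts 1 to 4, and at -0.02, 0.28, 0.04 and -0.16 in WT hearts 1 to 4. WT heart 4 was thus about level with SRC-2 KO heart 3. Among the 33 brighter members WT heart 2 was the highest WT heart in 22 and WT heart 4 the lowest in 21, whereas the place of highest SRC-2 KO heart was spread over all 4, each holding it in 7 to 10. Without WT heart 4 the members with every SRC-2 KO value below every WT value numbered 16 of 38, against 5.47% of all genes, and without SRC-2 KO heart 4 they numbered 13, against 8.28% of all genes.

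Genes with roles in the same cells that were not members were read in the same way. Which heart cells held the RNA of these genes, or of the factors described next, was not measured. Of 34 other macrophage receptors and adhesion genes, 25 had lower values and 9 higher (median -0.20), and of 34 other phagocyte effector and signalling genes 24 had lower values and 10 higher (median -0.14), with 0 past the adjusted threshold in either list and either fit (2 and 4 lower and 1 and 0 higher at an unadjusted limma p under 0.05, which 6.09% of all genes reached as lower and 3.95% as higher). Apoe, the lipid carrier that macrophages secrete, gave 3145, 2911, 3390 and 3675 in the SRC-2 KO hearts and 4502, 6628, 5256 and 4287 in the WT hearts, without overlap, at -0.64 ± 0.17 (limma adjusted p = 0.368 and 0.0624). Gas6, the ligand that bridges dying cells to the receptor MERTK, was at -0.34 ± 0.10, Unc93b1, which delivers Toll-like receptors to the endosome, at -0.57 ± 0.18, and P2ry6, a nucleotide receptor for phagocytosis, at -0.61 ± 0.23. Gas6 and Unc93b1 did not overlap between genotypes, nor did P2ry6, and Mertk itself overlapped at -0.28 ± 0.13. Lamp1, a membrane protein of lysosomes in most cells, had all SRC-2 KO hearts above all WT hearts, at 0.18 ± 0.11. Cd36, a fatty acid transporter that heart muscle and endothelium carry too, was at 0.32 ± 0.11 with all SRC-2 KO hearts above all WT hearts (adjusted p = 0.43 and 0.202, limma).

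The factors that act on macrophages were divided. Of 13 transcription factors 6 had lower and 7 higher values (median 0.09). Maf, which sets the resident macrophage programme, gave 902, 1196, 1223 and 1178 in the SRC-2 KO hearts and 1408, 2518, 1968 and 1652 in the WT hearts, without overlap, at -0.72 ± 0.21 (limma adjusted p = 0.391 and 0.0915). Of 14 CSF1 and chemokine ligand genes 6 had lower and 8 higher values (median 0.07). Csf1 itself gave 1462, 1580, 1884 and 1410 in the SRC-2 KO hearts and 1462, 1561, 1817 and 1808 in the WT hearts, at -0.07 ± 0.14 (95% interval -0.40 to 0.25), while Cxcl12, which holds leukocytes in tissue, was at -0.44 ± 0.20 and the chemokine Ccl6 at 0.64 ± 0.31, both with overlap. No gene of these lists passed the adjusted threshold in either fit. An unadjusted limma p under 0.05 was reached by 1 transcription factor, as lower, and by no ligand. Of all genes 6.09% reached it as lower and 3.95% as higher.

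Markers of other cells also had values that differed between genotypes in one direction within a list. All 12 fibroblast genes had lower values (median -0.56), with a summed signal of 104911 to 141658 in the SRC-2 KO hearts and 131799 to 211694 in the WT hearts. For example Col3a1, a fibrillar collagen, was at -0.95 ± 0.29 and Fbln1 at -0.41 ± 0.13, both without overlap. All 13 genes of atrial muscle had lower values (median -1.50, summed signal 40939 to 226396 in the SRC-2 KO hearts and 185894 to 301496 in the WT hearts), and with the trended variance 4 of them fell, namely Stard10, Tbx5, Nr2f2 and Fgf12 (limma adjusted p of 0.0185 for Stard10 and 0.0368 for the others). Of all genes 0.253% were called lower in that fit. Endothelial genes were lower in 11 of 12 (median -0.18), among them Cldn5 of the tight junction at -0.86 ± 0.22, and the 10 general heart muscle genes were all higher (median 0.19). The part of these lists in the macrophage values was not tested.

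Other leukocytes were close to background or uneven. Of 12 T cell and NK cell genes 9 had a mean signal under 50, and their summed signal was 385 to 679 in the SRC-2 KO hearts and 261 to 461 in the WT hearts. Of 8 B cell genes 7 had lower values (median -0.34), with sums of 1051 to 1907 in the SRC-2 KO hearts and 1391 to 1668 in the WT hearts that rest mostly on Ebf1. Cd79a, Cd79b and Ms4a1 of that list had mean signals of only 14.5, 55.5 and 55.4. Dendritic cell genes were lower in 5 of 9 (median -0.25) and mast cell genes in 5 of 8 (median -0.15), with 4 of each list under 50. Among the dendritic cell genes Flt3 was at -2.41 ± 0.77, Zbtb46 at -0.63 ± 0.26 and Cd209a at 1.96 ± 0.77, all with overlap. Flt3 averaged 26.0 in the SRC-2 KO hearts and 80.3 in the WT hearts, and Cd209a averaged 61.1 and 24.0. The Flt3 and Cd209a changes thus rest partly on signals under 50, which have no reliable scale. The neutrophil genes S100a8 and S100a9, subunits of calprotectin, were high in 3 SRC-2 KO hearts only: S100a9 gave 561, 636, 1137 and 26.5 in the SRC-2 KO hearts and 31.1, 56.1, 43.2 and 11.5 in the WT hearts (3.40 ± 1.2, limma adjusted p = 0.441 and 0.155). Of the 10 neutrophil genes 8 had higher values and 2 lower. Elane, 1 of the lower ones, was at -1.59 ± 0.44 without overlap, with a mean of 21.3 in the SRC-2 KO hearts and 73.4 in the WT hearts. Of 9 genes of circulating monocytes 6 had lower values (median -0.34). The value farthest from 0 in that list was a higher one, that of Chil3, a chitinase-like protein, which gave 323, 122, 216 and 40.6 in the SRC-2 KO hearts and 5.84, 41.9, 19.1 and 2.18 in the WT hearts, at 3.76 ± 1.04 (limma adjusted p = 0.385 and 0.11). Alas2, an enzyme of haem synthesis in red cell precursors, gave 2428, 910, 3594 and 1014 in the SRC-2 KO hearts and 860, 1317, 940 and 553 in the WT hearts. The sources used here do not say whether blood was flushed from the hearts, and the part of blood cells in these values was not tested.

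**Figure D4:**
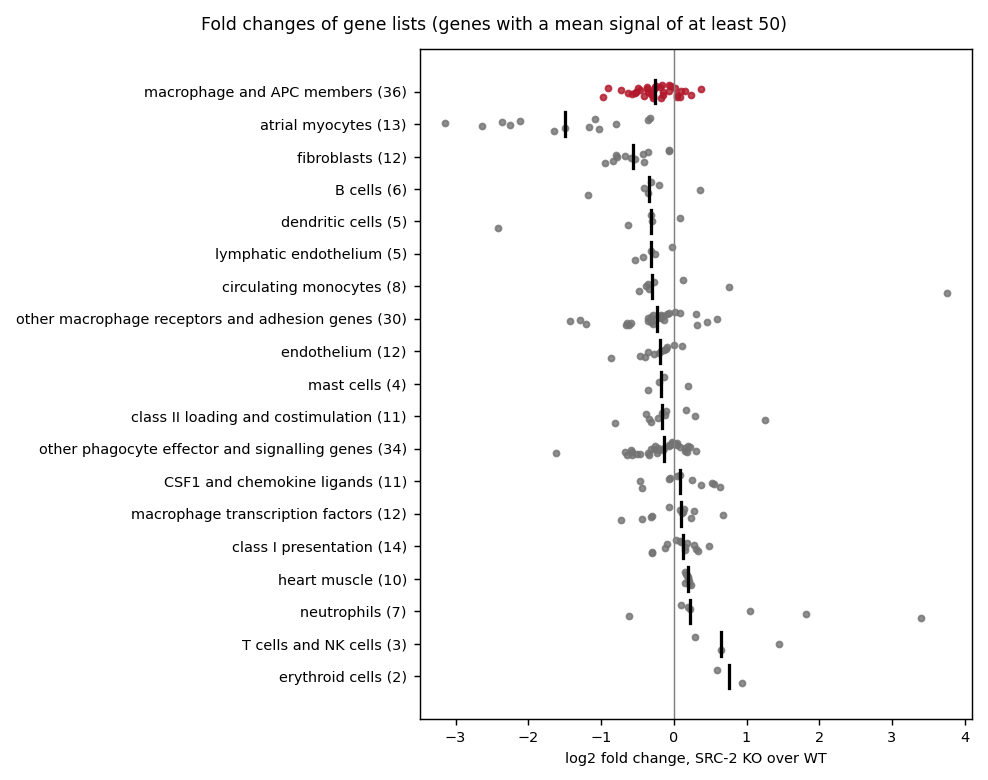
Log2 fold change, SRC-2 KO over WT, of the members (top row) and of 18 other gene lists, with 1 point for each gene with a mean signal of at least 50 (number in parentheses) and a black bar at the list's median. Most member points lie left of 0, as do those of fibroblasts and atrial myocytes, and those of heart muscle lie right of it.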

How the data were processed

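RNA from 8 whole hearts, 4 SRC-2 KO and 4 WT, was labelled with a 3' amplification kit and hybridised to Affymetrix Mouse 430 2.0 arrays. The authors deposited 1 table of 45101 probesets with an intensity for each array. RMA, Partek and Affymetrix Expression Console are the tools credited in the submitters' notes on processing, but the deposited intensities are linear and every array has a mean of 500 after trimming 2% at each end, so they are not log2 RMA values. Which program made them was not given in the sources used here. Log2 was taken without a floor or offset, where log2 values had been planned for. A probeset was named from GEO's platform annotation where it carried 1 symbol (34958 probesets; 932 carried several and 9211 were not listed), and the probeset with the highest mean log2 signal stood for its gene, which gave 18194 genes. Some member symbols are also measured by probesets marked x, s or a, which can bind related transcripts.

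The genotypes were compared with limma 3.58.1 (R 4.3.3, lmFit and eBayes), with 1 prior variance for all genes, as close as limma comes to the random variance model of the study's methods, and with a trended prior variance as an alternative. P-values are two-sided and adjusted by Benjamini-Hochberg over all 18194 genes, with a threshold of 0.05. Where 2 adjusted p-values follow one log2 fold change, the first is from the common and the second from the trended variance. Intervals are 95% intervals of the first fit. No set test was run: lists are described by counts and medians. The members and lists were chosen with earlier results of these data known. Values are given in every heart for members above a mean of 200 that did not overlap or were the brightest of their role, for members that passed, and for resident, monocyte-derived and class II genes, and also, chosen after their values were seen, for Adgre1, Ptprc and Ms4a7. Of other lists they are given for up to 3 genes with the smallest p above that signal, to which Csf1, Chil3 and Alas2 among others were added in the same way. The methods describe the animals as littermates, and nothing says that a replicate number marks a litter or day. Precision is limited by the number of arrays. Alternatives were the probeset rule, floors and filters for dim signals, quantile normalization, median centring, the replicate number as a block and leaving out each heart. Sequences are from RefSeq (GRCm38.p6). Plots were drawn with matplotlib.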

Additional observations from a re-analysis of the deposited data

Results flagged for a closer look

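In 4 of the 76 sets of 4 hearts (38 members in each genotype) 1 heart lay far from the other 3 for its set, by the ratio of its gap to the whole range. Chance flags about 1 in 20 such sets. Ms4a7 gave 482 in WT heart 4 (ratio 0.90), below the other WT hearts and toward the SRC-2 KO values. Laptm5 gave 349 in SRC-2 KO heart 1 (ratio 0.84), below the other SRC-2 KO hearts and away from the WT values. Cybb gave 342 in SRC-2 KO heart 2 (ratio 0.85), above the other SRC-2 KO hearts and still below every WT heart. Spi1 gave 44.4 in WT heart 3 (ratio 0.87), under a signal of 50 and below the other WT hearts.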

How the results depend on the processing

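Over 27 alternatives, 934 of 1018 gene values kept their direction and their side of the threshold, 64 changed sign, and 25 of the 38 members never changed sign. A trended variance, the block and the filter for dim genes leave a gene's log2 fold change as it was. Most members were also far from the threshold, so these counts do not measure robustness. The median log2 fold change of the members stayed below 0, at -0.22 after quantile normalization, -0.21 after median centring and -0.33 to -0.21 when a heart was left out. The median of all genes was 0.04 after median centring and -0.03 without it. The single member called lower became 0 with the mean of all probesets, without probesets marked x, s or a (32 members then measured), with signals under 50 set to 50, without dim genes, with the replicate block, and in the trended fits with that floor or with the block. Leaving out a heart gave 0 members lower in the first fit, whichever heart it was, and 0 to 3 in the trended fit, with 0 higher. The trended fit kept 1 without SRC-2 KO heart 1 or 2 and gave 0 without SRC-2 KO heart 3 or any WT heart. The 3, in the trended fit without SRC-2 KO heart 4, were Il10ra, C1qc (-0.69, limma adjusted p = 0.0169) and Ms4a7 (-1.22, adjusted p = 0.00978). Over all genes, 1 was higher and 3 lower in the main fit, 22 and 46 in the trended fit and 26 and 51 in the trended fit with the block. The count of higher genes was 0 with the mean of all probesets (1 lower), the floor, the dim filter, quantile normalization, the trended fit with the floor and the replicate block (0 lower), and leaving out a heart gave 0 to 104 higher and 1 to 216 lower, both upper values in the trended fit without SRC-2 KO heart 4. Members with every SRC-2 KO value below every WT value numbered 6 (of 32) to 9 under other settings, against 2.63% to 4.7% of all genes. They numbered 9 to 16 when a heart was left out, the most without WT heart 4, against 5.14% to 8.28% of all genes.

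Signs turned for H2-Aa (-0.27) and Coro1a (0.24) with the mean of all probesets, for Il10ra (0.14), Laptm5 (0.13) and Coro1a (0.78) without marked probesets, for Ptprc, Cd68 and Spi1 (0.02 each) and F13a1 (-0.02) after quantile normalization, and for Ptprc (0.02) after median centring. Leaving out a heart gave log2 fold changes of -0.12 to 0.20 for Cd52, -0.08 to 0.32 for Ccr2, -0.13 to 0.28 for H2-Aa, -0.28 to 0.29 for H2-Eb1, -0.35 to 0.09 for Cd14, -0.05 to 0.31 for Ctss, -0.09 to 0.15 for F13a1, -0.15 to 0.06 for Ptprc, -0.46 to 0.13 for Spi1 and -0.15 to 0.02 for Cd68. The cause of these shifts was not tested. Deviations of same-numbered hearts correlated at 0.06, -0.08, -0.02 and 0.11, so the numbers were not taken to pair the hearts. With the number as a block Il10ra stayed at -4.10 with a limma adjusted p of 0.534, or 0.0563 in the trended fit.

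Signals under 50 limit Il10ra and Itgam, and Spi1 and Ccr2 are little brighter. The trended fits with the floor, with the block and with a heart left out, and the probeset rule by linear mean, were added after the data had been seen.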

Other observations

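Genes of the antigen-presenting machinery beyond the members also had small differences. Of 14 genes of MHC class I presentation 10 had higher and 4 lower values in the SRC-2 KO hearts (median 0.13), and 0 passed the adjusted threshold in either fit. At an unadjusted limma p under 0.05, 1 was lower, beside 6.09% of all genes. B2m, the light chain of class I, gave 12366, 23860, 16204 and 16312 in the SRC-2 KO hearts and 11117, 15890, 15099 and 11607 in the WT hearts, at 0.33 ± 0.23, and H2-K1, a heavy chain, was at 0.28 ± 0.28. In both genes SRC-2 KO heart 2 was the highest of the 8, as it was for H2-Aa, H2-Eb1 and Cd74. Calr, a chaperone of class I assembly and a calcium store protein, gave 8147, 9082, 8422 and 9324 in the SRC-2 KO hearts and 10901, 11843, 10389 and 10048 in the WT hearts, without overlap, at -0.30 ± 0.10.

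Of 13 genes of class II loading and costimulation 10 had lower values (median -0.22), with a summed signal of 2943 to 3411 in the SRC-2 KO hearts and 3395 to 3858 in the WT hearts. Lgmn, an endosomal protease, was at -0.31 ± 0.16, and Ifi30, the reductase that opens disulphide bonds of antigens, at -0.22 ± 0.16. Both overlapped between genotypes.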
